A study of Mus musculus with 4 samples.

Results

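The genes described here are 10 markers commonly read for an epithelial or a mesenchymal cell state: the cadherins Cdh1 and Cdh2, the epithelial adhesion molecule Epcam, the keratins Krt7, Krt8, Krt18 and Krt19, the filament gene Vim, and the transcription factors Snai2 and Zeb1. They were chosen with earlier results of these data known and picked out by gene symbol. All 10 were found among the 54838 genes listed. Expression was read by RNA sequencing in Hepa1-6, a line of mouse liver cancer cells, in 4 libraries, of which 2 are labelled NC, wild type for Acvr2a, and 2 are labelled KO, in which Acvr2a, a type II receptor gene for activin, was knocked out. No agent, dose or time is given for either group. The design text calls the KO cells subclones and does not say whether KO 1 and KO 2 are separate clones, so the p-values measure the spread between these libraries, which may be technical.

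Epithelial cells are held together by E-cadherin (Cdh1) at adherens junctions and carry keratin filaments, in which one type I keratin pairs with one type II keratin. In an epithelial to mesenchymal transition, repressors of the SNAI and ZEB families bind E-box letters in promoters such as that of Cdh1, N-cadherin (Cdh2) and vimentin (Vim) are gained, and epithelial junctions are lost. In liver, Krt8 and Krt18 are the keratins of hepatocytes, whereas Krt7, Krt19 and Epcam mark bile duct cells and progenitors.

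The libraries held 11597923 to 13910582 counts. The targeted gene, Acvr2a, was read at 81, 108, 75 and 97 counts across NC 1, NC 2, KO 1 and KO 2 (log2 fold change -0.21 with SE 0.20 by edgeR quasi-likelihood, adjusted p = 0.433). This gene total does not check the labels, since the edited site is not given in the sources used here, and the group names follow the labels. All 12 hepatocyte markers had a count. Of 9 tested 2 were higher and 4 lower at an adjusted p of 0.05, beside 19.7% and 18.2% of all genes tested. Alb (log2 fold change 0.41) and Trf (0.54) rose, and Afp (-1.21), Hnf4a (-0.995), Fgb (-0.75) and Rbp4 (-0.39) fell, while Ttr, Serpina1a and Ahsg had 0 to 5 counts in each library. Endothelial markers summed to 0.47 to 0.92 TPM (a level scaled for gene length and library size) in NC and 0.39 to 1.15 TPM in KO, with 5 of 10 at 0 in every library, among them Cdh5.

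Krt7, Krt19, Epcam and Vim were higher in KO, by 1.70, 1.65, 1.5 and 1.21-fold. Krt8, Krt18, Cdh2 and Zeb1 did not pass the test, and Cdh1 and Snai2 had too few reads to be tested. Thus of the 10 genes 8 were tested, 4 rose and 0 fell at an adjusted p of 0.05, where 37.9% of all 12510 genes tested were called, 19.7% higher and 18.2% lower. The 4 tested genes without a call had positive log2 fold changes as well, though those of Krt8, Krt18 and Cdh2 were below 0 with 1 library left out. The median over the 8 was a log2 fold change of 0.22, against -0.0037 over all genes tested. The 2 groups of libraries did not overlap in 5 of the 8 genes, a pattern that 69.4% of all genes tested showed. The list was chosen with earlier results of these data known, 2 of 10 markers were near or at 0 and only 8 were tested. These shares are therefore a description of the list only.

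**Figure D1:**
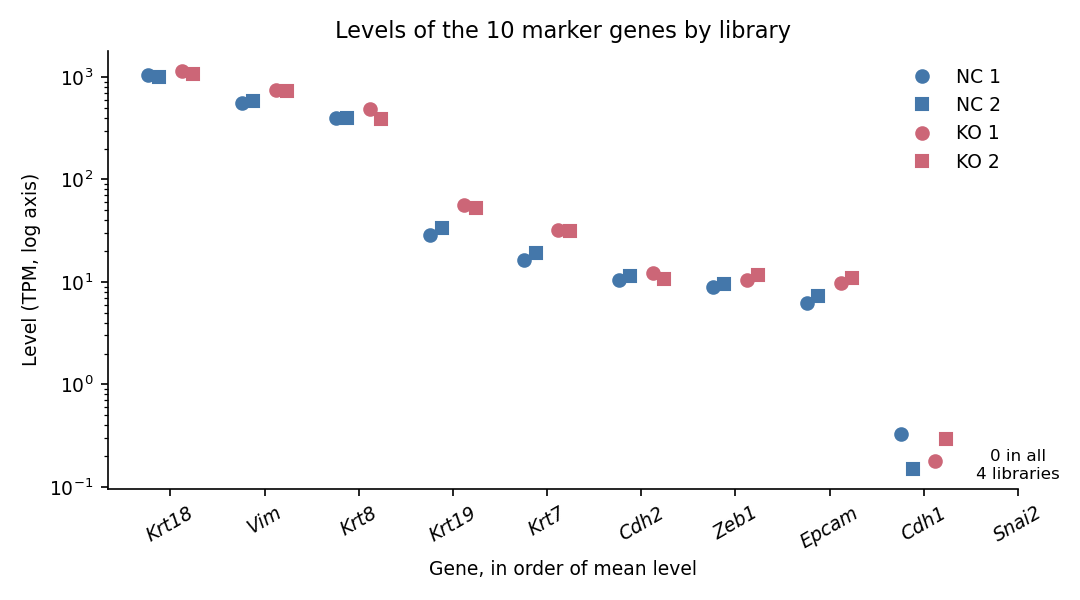
Level of each marker gene in TPM on a log axis, 1 point per library, with NC in blue and KO in red and circles and squares for libraries 1 and 2. Krt18, Vim and Krt8 lie between 389 and 1155 TPM, Cdh1 lies between 0.15 and 0.33 TPM, and Snai2 is at 0 in every library.

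The genes spanned more than 3 orders of magnitude in level. Krt18, Vim and Krt8 were among the most abundant RNAs, ranking 120, 215 and 271 by mean TPM among the 18074 genes above 0 in NC and 115, 154 and 249 among 19334 in KO. Krt19 and Krt7 followed at ranks 3503 and 5189 in NC and 2225 and 3571 in KO. Cdh2, Zeb1 and Epcam lay together at 6.21 to 12.1 TPM over all libraries, and their ranges overlapped one another. Cdh1 was far below these, at ranks 13735 and 14323. The cells thus held abundant RNA of both keratin 8 and 18 and of vimentin, with very little of E-cadherin, in NC as in KO.

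Krt7 encodes keratin 7, a type II keratin of ductal epithelia. NC 1 held 667 counts, NC 2 843, KO 1 1361 and KO 2 1350, which were 16.3, 19.1, 32.1 and 31.1 TPM in the same order. Both KO libraries were high, with no overlap. In CPM, the count scaled to library size, the means were 59.8 ± 1.56 in NC and 102 ± 2.38 in KO (SD, n = 2). The log2 fold change was 0.76 (SE 0.09, 95% interval 0.57 to 0.96, adjusted p = 4.21e-07), and it was 0.73 to 0.79 with any 1 library left out.

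Krt19 encodes keratin 19, a small type I keratin that bile duct cells carry together with keratin 7. The libraries NC 1 and NC 2 held 400 and 474 counts of it, or 29.0 and 33.6 TPM, against 780 and 751 counts, or 55.8 and 53.0 TPM, in the libraries KO 1 and KO 2. Again both KO libraries stood above both NC libraries. Mean CPM was 34.7 ± 0.68 for NC against 57.4 ± 2.55 for KO (SD, n = 2), and Krt19 rose with a log2 difference of 0.73 (SE 0.10, 95% interval 0.52 to 0.94, adjusted p = 3.20e-06). Krt7 and Krt19 lost their calls only in limma on unfiltered TPM, where no gene passed (adjusted p = 0.0833 for both).

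Epcam encodes a homophilic adhesion protein of epithelial cells. It was the least abundant of the genes called, with NC 1 holding 100 counts, NC 2 127, KO 1 160 and KO 2 200, or 6.21, 7.31, 9.66 and 10.9 TPM. The groups did not overlap, and KO 2 was the higher of the KO libraries. Its mean CPM was 8.98 ± 0.27 in NC against 13.5 ± 1.88 in KO (SD, n = 2), and the rise was 0.58 in log2 (SE 0.17, 95% interval 0.24 to 0.93, adjusted p = 0.00674). This call was lost with DESeq2 (adjusted p = 0.0598), in limma on TPM (0.0528 to 0.155) and without KO 2, where the log2 fold change was 0.43 (adjusted p = 0.116).

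Krt8 and Krt18 encode the type II and type I keratins that form the filaments of hepatocytes. Krt8 counts were 7240 for NC 1, 8458 for NC 2, 9410 for KO 1 and 8135 for KO 2. Its levels were 394, 398, 482 and 389 TPM in NC 1, NC 2, KO 1 and KO 2, so KO 1 was high and KO 2 lay below both NC libraries. The log2 fold change was 0.078 (SE 0.10, 95% interval -0.12 to 0.28, adjusted p = 0.563). Of the 50-base stretches in Krt8 transcripts, 26.9% also occur in the pseudogene Krt8-ps, which was given 8, 12, 14 and 12 counts, so the amount exchanged between them is uncertain but its recorded total is small.

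Krt18 was the most abundant of the 10 genes. Counts of 13455, 14718, 15676 and 15485 were read in NC 1, NC 2, KO 1 and KO 2, or 1050, 994, 1155 and 1064 TPM. Both KO libraries were above both NC libraries in TPM, but in CPM the groups overlapped, with KO 2 below NC 1. The log2 fold change was 0.057 (SE 0.10, 95% interval -0.14 to 0.25, adjusted p = 0.675). The intervals allow anything from 0.919 to 1.21-fold for Krt8 and from 0.908 to 1.19-fold for Krt18, and lie below the 1.43-fold and 1.49-fold lower bounds of Krt19 and Krt7.

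**Figure D2:**
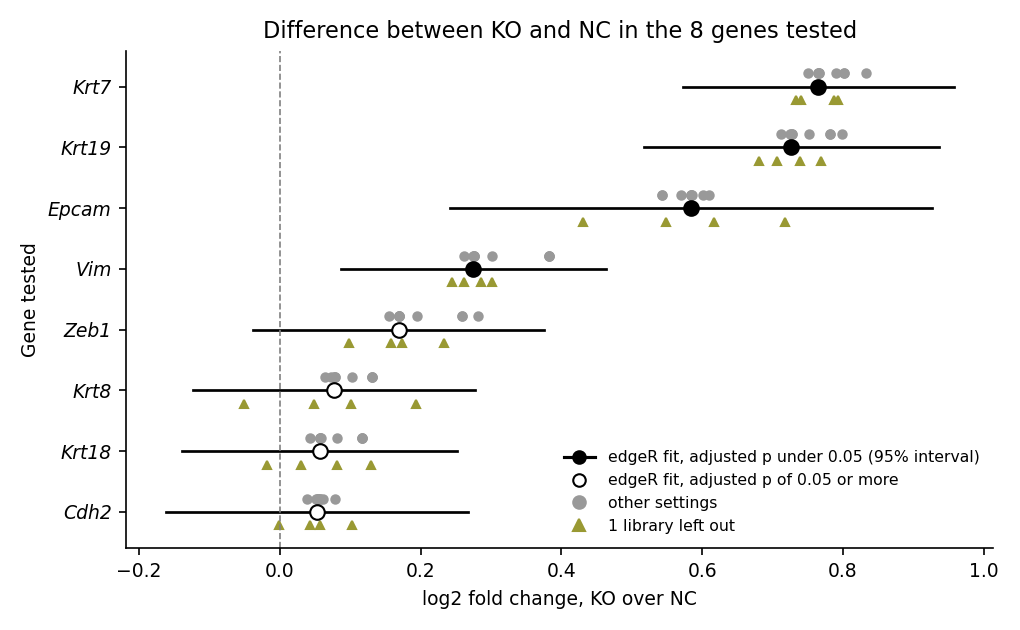
log2 fold change of KO over NC for the 8 genes tested, with the 95% interval of the edgeR fit as a line and a filled point where the adjusted p was under 0.05. Grey points are the other settings and triangles leave out 1 library: Krt7 and Krt19 stay above 0.68 in each of them, while Krt8, Krt18 and Cdh2 lie on both sides of 0.

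The 250 bases before the RefSeq start were read for the 5 of the 10 genes with an entry (Krt7, Epcam, Krt8, Krt18 and Vim, GRCm38.p6), and 3 are shown because they set the E-boxes of genes that rose (Krt7, Epcam) beside that of one that did not pass the test (Krt18). The runs are 5′ to 3′ on the plus strand, which is that of the genes: chr15:101412153-101412402 for Krt7, chr17:87635729-87635978 for Epcam and chr15:102027966-102028179 for Krt18, where the last 36 bases before the start are left out because GENCODE places them in the first exon. Capitals mark the E-box letters CAGGTG or CACCTG, which are one site read on either strand.
Krt7: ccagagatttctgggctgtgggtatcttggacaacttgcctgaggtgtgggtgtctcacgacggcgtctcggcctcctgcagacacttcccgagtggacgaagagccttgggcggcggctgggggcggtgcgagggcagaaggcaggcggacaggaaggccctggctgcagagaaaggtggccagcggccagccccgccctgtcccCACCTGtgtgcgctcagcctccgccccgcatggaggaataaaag
Epcam: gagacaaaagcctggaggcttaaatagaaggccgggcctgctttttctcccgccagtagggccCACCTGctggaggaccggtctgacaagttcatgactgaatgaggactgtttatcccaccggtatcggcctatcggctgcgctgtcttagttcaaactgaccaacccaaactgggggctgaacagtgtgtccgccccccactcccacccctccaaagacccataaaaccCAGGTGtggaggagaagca
Krt18: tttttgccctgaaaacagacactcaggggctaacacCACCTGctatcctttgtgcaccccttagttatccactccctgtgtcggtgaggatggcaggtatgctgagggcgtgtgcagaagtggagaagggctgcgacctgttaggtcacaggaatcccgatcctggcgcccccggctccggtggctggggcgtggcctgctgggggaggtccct

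The 6 E-box letters are known to be bound by SNAI and ZEB proteins, and both strands were searched. Counted from the start, with -1 the base before it, Krt7 has a match at -44 to -39, Krt8 at -111 to -106 and Krt18 at -214 to -209. Epcam has 2, at -187 to -182 and at -19 to -14. No match lies in the window of Vim. At least 1 match occurs in 17.2% of the 32851 windows of this length in the table, and at least 2 in 2.06%. The 3 keratin windows and that of Epcam hold the letters, whether or not the gene passed the test. In GENCODE M21, whose starts differ from those of RefSeq, 140 bases of the Krt8 window, with its match, and all 250 of the Vim window lie in 5′ UTR, and 162 bases of the Krt7 window lie in exons of other Krt7 transcripts, whereas the Epcam window lies outside the gene.

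**Figure D3:**
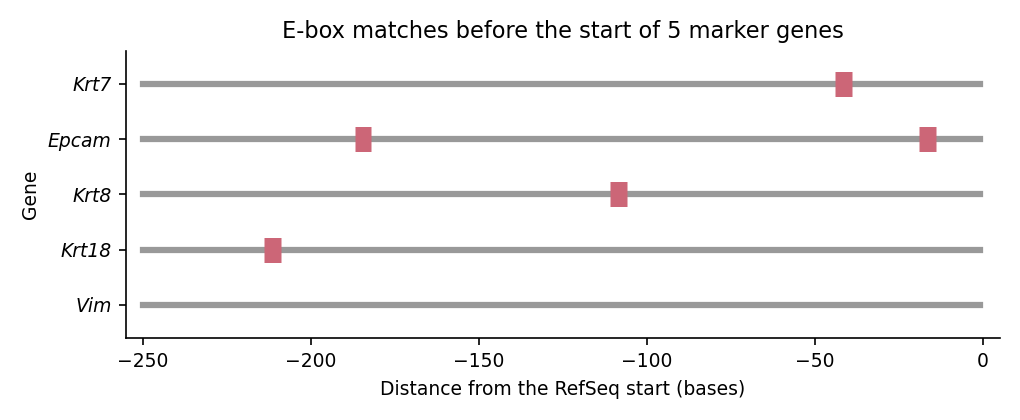
Position of E-box matches (red blocks) in the 250 bases before the RefSeq start of 5 marker genes, with distance from the start in bases on the x axis. Krt7, Krt8 and Krt18 have 1 match each, Epcam has 2 and Vim has none.

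Ratios within a library compare the genes without the scaling between libraries. The ratio of Krt8 to Krt18 in TPM was 0.375 and 0.40 in NC and 0.418 and 0.366 in KO, so the groups overlapped and the ranges were nested. Krt7 to Krt19 was 0.563 and 0.570 in NC and 0.575 and 0.587 in KO, a difference of 0.036 in mean log2 ratio. Both KO libraries lay above both NC libraries in this ratio in TPM (exact permutation p = 0.333) but not in expected counts, and the difference was small beside those across the pairs.

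Across the pairs the ratios differed more. Krt7 to Krt8, both type II keratins, was 0.0415 and 0.0481 in NC and 0.0665 and 0.0798 in KO, a difference of 0.71 in mean log2 ratio. Krt19 to Krt18, both type I, was 0.0276 and 0.0338 in NC and 0.0483 and 0.0498 in KO, a difference of 0.68. In both, every KO library lay above every NC library, and the exact two-sided permutation p was 0.333, the smallest that 2 libraries against 2 can give. The ratios with Krt7 and Krt19 in the numerator were added after the single genes had been fitted.

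Of 54 keratin genes listed 33 had a count, and Krt7, Krt8, Krt18 and Krt19 made up 93.6% to 94.5% of all keratin TPM. Krt18 alone took 62.7% to 66.6% and Krt8 23.7% to 26.2%. The share of Krt19 was 1.84% and 2.19% in NC and 3.03% and 3.22% in KO. That of Krt7 was 1.04% and 1.25% against 1.74% and 1.89%. Ductal keratins were thus a minor part of keratin RNA in all 4 libraries. The third keratin by level, above Krt19 and Krt7, was Krt20, an intestinal and urothelial type I keratin, which had a mean CPM of 102 ± 1.78 for NC against 133 ± 7.38 for KO (SD, n = 2), a rise of 0.39 in log2 (SE 0.09, adjusted p = 0.00157).

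**Figure D4:**
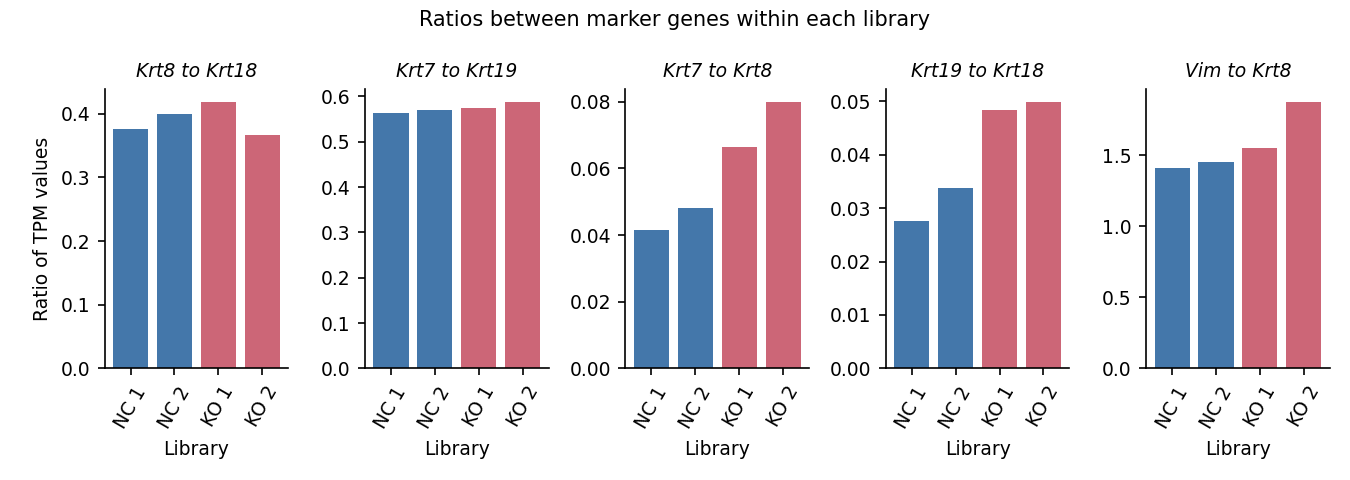
Ratio of the TPM values of marker genes within each library, 1 bar per library, NC in blue and KO in red, each panel starting at 0. Krt7 to Krt8, Krt19 to Krt18 and Vim to Krt8 are higher in both KO libraries, while Krt8 to Krt18 overlaps between the groups.

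Vim encodes vimentin, the intermediate filament protein of mesenchymal cells, which many cultured carcinoma lines also make. Reads assigned to it came to 7244 for NC 1, 9129 for NC 2, 10258 for KO 1 and 10675 for KO 2, which is 556, 578, 749 and 729 TPM. Both KO libraries lay above both NC libraries. Mean CPM values of 648 ± 15.6 for NC against 784 ± 8.26 for KO (SD, n = 2) gave a rise of 0.28 in log2 (SE 0.09, 95% interval 0.087 to 0.46, adjusted p = 0.0196). The call was lost without NC 1 (0.24, adjusted p = 0.133) and without NC 2 (0.30, adjusted p = 0.0542), and in limma on unfiltered TPM (adjusted p = 0.114).

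The ratio of Vim to Krt8 was 1.41 and 1.45 in NC and 1.55 and 1.87 in KO (exact permutation p = 0.333). Its difference of 0.25 in mean log2 ratio fell to 0.12 without KO 2, the library in which Krt8 was lowest. Vimentin is also made by leukocytes and fibroblasts, and markers of both were read beside it. Of 12 leukocyte markers 8 had a count, and they summed to 25.0 to 29.0 TPM in NC and 57.5 to 69.3 TPM in KO. Nearly all of that sum was Cd68, at mean levels of 25.9 TPM in NC and 61.6 TPM in KO. Csf1r, the other marker tested, did not pass (0.15, adjusted p = 0.771). Cd68, a lysosomal gene, was at 252 and 338 counts in the NC libraries against 623 and 812 in the KO libraries, whereas Ptprc had 0, 1, 2 and 2 counts and Cd3e, Nkg7 and Tyrobp had 0 in every library.

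Fibroblast and stellate cell markers summed to 1036 to 1099 TPM in NC and 1241 to 1245 TPM in KO, with 8 of 12 counted. Nearly all of that sum was Dcn, at mean levels of 1063 and 1231 TPM, which did not pass (0.16, adjusted p = 0.193). Of the 5 tested 3 were higher and 0 lower, beside 19.7% and 18.2% of all genes tested. Col1a1 was at 6 and 5 counts for NC against 38 and 41 for KO (2.73, adjusted p = 3.05e-05). Des was at 43 and 55 against 126 and 126 (1.28, adjusted p = 2.76e-05). Pdgfra was at 140 and 157 against 290 and 329 (0.97, adjusted p = 5.43e-06). Rgs5 did not pass (0.59, adjusted p = 0.304), and Col1a2, Pdgfrb and Acta2 had 0 to 2 counts in each library. Col3a1, Lum, Lrat and Reln had 0 counts in every library. The part of such cells in the difference in Vim was not tested, and in bulk RNA more cells of a type and more RNA per cell cannot be told apart.

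Cdh2 encodes N-cadherin, which normal hepatocytes carry as well as mesenchymal cells. From NC 1 to KO 2 in label order it was read at 449, 550, 561 and 535 counts, or 10.5, 11.3, 12.1 and 10.7 TPM. The groups overlapped, and only KO 1 was above both NC libraries in TPM. The log2 fold change was 0.053 (SE 0.10, 95% interval -0.16 to 0.27, adjusted p = 0.728), which allows from 0.894 to 1.20-fold.

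Cdh1, E-cadherin, was read at 6, 3, 6 and 3 counts across NC 1, NC 2, KO 1 and KO 2, or 0.33, 0.15, 0.18 and 0.29 TPM, and fell under the filter on low counts. Summed over each group this was 9 counts against 9, a ratio of 0.966 in CPM with an exact 95% interval of 0.340 to 2.75 that covers counting error only. A difference smaller than that was not detectable at this depth. The ratio of Cdh2 to Cdh1 in TPM was 31.7 and 75.5 in NC and 67.3 and 36.8 in KO, which rests on these few Cdh1 counts.

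Among 23 classical and related genes with a Cdh symbol, 14 had a count, and Cdh2 ranked 3 and Cdh1 ranked 5 by mean TPM. The first was Cdh17, liver-intestine cadherin, at 143 TPM in NC and 132 TPM in KO on average, and did not pass (log2 fold change -0.17 with SE 0.09, adjusted p = 0.145). The second was Cdh16, a kidney-type cadherin, at 34.3 and 62.7 TPM. Its CPM was 68.7 ± 3.49 in NC and 125 ± 8.13 in KO (SD, n = 2), higher by 0.86 in log2 (SE 0.10, adjusted p = 7.83e-08). E-cadherin RNA was thus a trace beside the RNA of Cdh17, Cdh16 and Cdh2 in both groups.

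Zeb1 encodes a zinc-finger repressor of epithelial genes. Its reads numbered 516 for NC 1, 632 for NC 2, 643 for KO 1 and 723 for KO 2, or 8.83, 9.46, 10.6 and 11.7 TPM. Both KO libraries lay above both NC libraries, yet the log2 difference of 0.17 (SE 0.10, 95% interval -0.038 to 0.38) did not pass (adjusted p = 0.194), and none of the 13 other fits called it. Snai2 had 0 counts in each library, which at 3 counts allows a level of up to 0.216 to 0.259 CPM.

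Most of the genes lie far apart in the genome. On GRCm38, Krt7 (chromosome 15, 101411043 to 101430313), Krt8 (101996698 to 102004482, minus strand) and Krt18 (102028180 to 102032027) share the keratin type II cluster of chromosome 15, where Krt18 is the one type I gene. Krt7 rose, and Krt8 and Krt18, further along this cluster, did not pass. Krt5, which lies between Krt7 and Krt8 (101707070 to 101712898, minus strand), rose by 0.54 in log2 (adjusted p = 0.0133). Krt19 lies in the type I cluster on chromosome 11 (100140810 to 100148665, minus strand). Vim is on chromosome 2 (13573927 to 13582826), Epcam on chromosome 17 (87635979 to 87651129), Cdh1 on chromosome 8 (106603351 to 106670246) and Snai2 on chromosome 16 (14705852 to 14709385). Cdh2 and Zeb1 lie on chromosome 18 (16588877 to 16809246, minus strand, and 5591860 to 5775467).

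All 10 are protein-coding, and the values are totals over the exons of 1 to 12 annotated transcripts each. Exons of Krt7, Krt8 and Zeb1 overlap those of Gm671, Gm36026 and Gm10125 on the opposite strand, and these had 0 to 4 counts in each library. The abundance-weighted transcript length in the files differed by library for several genes, and this enters TPM but not counts. For Zeb1 it was 5704, 5627, 5598 and 5303 bases in NC 1, NC 2, KO 1 and KO 2, and for Vim 1458, 1517, 1448 and 1444 bases. On the log2(TPM + 1) scale the fold change was 0.26 for Zeb1 and 0.38 for Vim.

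The other genes that build or regulate an epithelial state moved in both directions, and they are given as counts of lists written with earlier results of these data known. Desmosome genes, whose products anchor keratin filaments at cell contacts, had 7 of 11 tested members higher, 0 lower and a median log2 fold change of 0.49. Of all genes tested, 19.7% were higher and 18.2% lower. Jup was counted with the adherens junction genes and is not among these 11, and it did not pass (-0.094, adjusted p = 0.443). Pkp2 (0.91, SE 0.13), Dsc2 (0.65, SE 0.13), Dsg2 (0.49, SE 0.11) and Dsp (0.46, SE 0.10) rose. The value of Dsc2 was 0.42 without KO 2 (adjusted p = 0.014) and 0.85 without KO 1. The calls of Dsg2 and Dsp were lost in the fits on TPM (adjusted p up to 0.297).

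Adherens junction genes had 5 of 12 higher and 1 lower, with a median of 0.019, beside 19.7% and 18.2% of all genes tested. Of the catenins, Ctnnb1, Jup and Ctnnd1, whose products bind the cadherin tail, had log2 fold changes of -0.14 (adjusted p = 0.244), -0.094 (0.443) and -0.22 (0.0593, and past 0.05 in 2 other fits), and Ctnna1, whose product binds beta-catenin, had 0.13 (0.271). Arvcf, a relative of Ctnnd1, rose from 22 and 32 counts to 53 and 45 (0.78, SE 0.31, adjusted p = 0.0478). Vcl, vinculin, rose by 0.91 (SE 0.11), and Pdlim7, Afdn and Nectin2 rose by 0.57, 0.45 and 0.40. The 1 gene lower was Nectin3 (-0.65, SE 0.16, adjusted p = 0.00259), and Nectin1 did not pass (-0.34, adjusted p = 0.107). Tight junction and polarity genes had 3 of 16 higher and 4 lower with a median of -0.0097, near the 19.7% and 18.2% of all genes tested, so the count is no result about them. Among them Cgnl1 (0.77) and Tjp1 (0.39), which encodes ZO-1, rose, and Crb3 (-0.94), Cldn2 (-0.53, and -0.34 without KO 1) and Lsr (-0.49) fell.

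A list of epithelial transcription and splicing factors, which also holds genes commonly regulated with Cdh1 and Epcam, had 5 of 9 higher and 1 lower, beside 19.7% and 18.2% of all genes tested. Of the 5, Cdh16 is the cadherin described above and no factor, and Spint2, a protease inhibitor among the 9, did not pass (-0.12, adjusted p = 0.322). Grhl2, an activator of epithelial genes that include Cdh1, had a mean CPM of 13.6 ± 0.49 for NC against 27.9 ± 2.48 for KO (SD, n = 2), higher by 1.03 in log2 (SE 0.14, adjusted p = 1.18e-06), and Klf4 rose by 0.61. Rbm47 fell by 0.46 (log2 fold change -0.46), Esrp2 did not pass (-0.17, adjusted p = 0.256) and Esrp1 had 0 counts in every library. Of the other intermediate filament genes 4 of 9 were higher and 3 lower, beside the same 19.7% and 18.2%. Des (1.28), a filament gene of muscle that is also among the stellate cell markers above, and Prph (1.18), one of nerve, rose from low levels of 3.88 and 7.05 CPM, and Krt23 fell, from 12 and 22 counts to 2 and 2.

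The remaining factors of the transition were compared with Zeb1 and Snai2. Of these 16 listed genes 9 were tested, with 4 higher and 1 lower and a median of 0.22, beside 19.7% and 18.2% of all genes tested. Snai1, the most abundant of the SNAI family here, had a mean CPM of 59.4 ± 1.73 for NC against 84.9 ± 2.61 for KO (SD, n = 2), higher by 0.52 in log2 (SE 0.10, adjusted p = 0.000112). Snai3 rose from 6 and 2 counts to 19 and 15 (1.96, SE 0.66, and 1.26 to 3.06 with 1 library of NC left out), Sox4 rose by 0.48, and Hmga2 fell by 0.85 (log2 fold change -0.85). Zeb2 did not pass (0.22, SE 0.24, adjusted p = 0.504). Twist1 had 0 counts in every library, whereas Twist2 had 360, 449, 389 and 316 in NC 1, NC 2, KO 1 and KO 2. Twist2 did not pass either (-0.28, adjusted p = 0.0775). The calls of Snai3 and Hmga2 were lost with DESeq2 and in other fits, for Snai3 without NC 2 or KO 1 and for Hmga2 without NC 2 or KO 2 (adjusted p up to 0.205 and 0.280).

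Mesenchymal cytoskeleton, matrix and surface genes, the company of Vim, had 6 of 20 higher and 4 lower with a median of 0.29, and 19.7% and 18.2% of all genes tested were so called. Fn1, fibronectin (0.88, SE 0.10), rose, whereas the actin-binding genes Tagln2 (-0.60) and Tpm1 (-0.59) fell. Of the other Tpm genes listed, Tpm2 rose from 22 and 28 counts to 58 and 74 (1.31, adjusted p = 0.000903). Tpm4 did not pass (-0.23, adjusted p = 0.0512). Biliary and progenitor genes, the company of Krt7, Krt19 and Epcam, had 1 of 11 higher and 7 lower with a median of -0.25, against these same 19.7% and 18.2%. Sox9, a duct and progenitor factor, had a mean CPM of 104 ± 12.2 for NC against 72.3 ± 10.4 for KO (SD, n = 2), lower with a log2 difference of -0.52 (SE 0.11, adjusted p = 0.000313). Onecut1 (-0.81) and Igf2bp3 (-0.46) fell as well. Prom1 was the 1 gene higher (1.85, SE 0.57), from 0.452 to 1.61 CPM.

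The falls of Sox9, Igf2bp3, Rbm47 and Cldn2 were lost in the fits on TPM (adjusted p up to 0.263, 0.536, 0.371 and 0.239), those of Igf2bp3 and Rbm47 also without NC 2 (-0.29 and -0.37), and that of Onecut1 in 2 of those fits (up to 0.164), and the rise of Prom1 in all 3 of them, with DESeq2 and without NC 2 or KO 2 (up to 0.224). Exons of Vcl, Fn1, Dsp, Dsg2, Grhl2, Crb3, Lsr, Afdn, Nectin2, Des, Hmga2, Igf2bp3 and Prom1 overlap another gene on the opposite strand. So do those of Acvr2a, Rbm47, Sox4, Zeb2, Esrp2, Arvcf, Ctnna1, Ctnnb1, Krt5, Twist2, Tpm4, Csf1r and Pdgfra. The totals of all these genes are uncertain where the counting ignored strand. Exons of Onecut1, Ctnnd1, Ctnnb1, Pdlim7, Rbm47, Zeb2, Trf and Pdgfra overlap another gene on the same strand, which counting by strand does not separate.

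**Figure D5:**
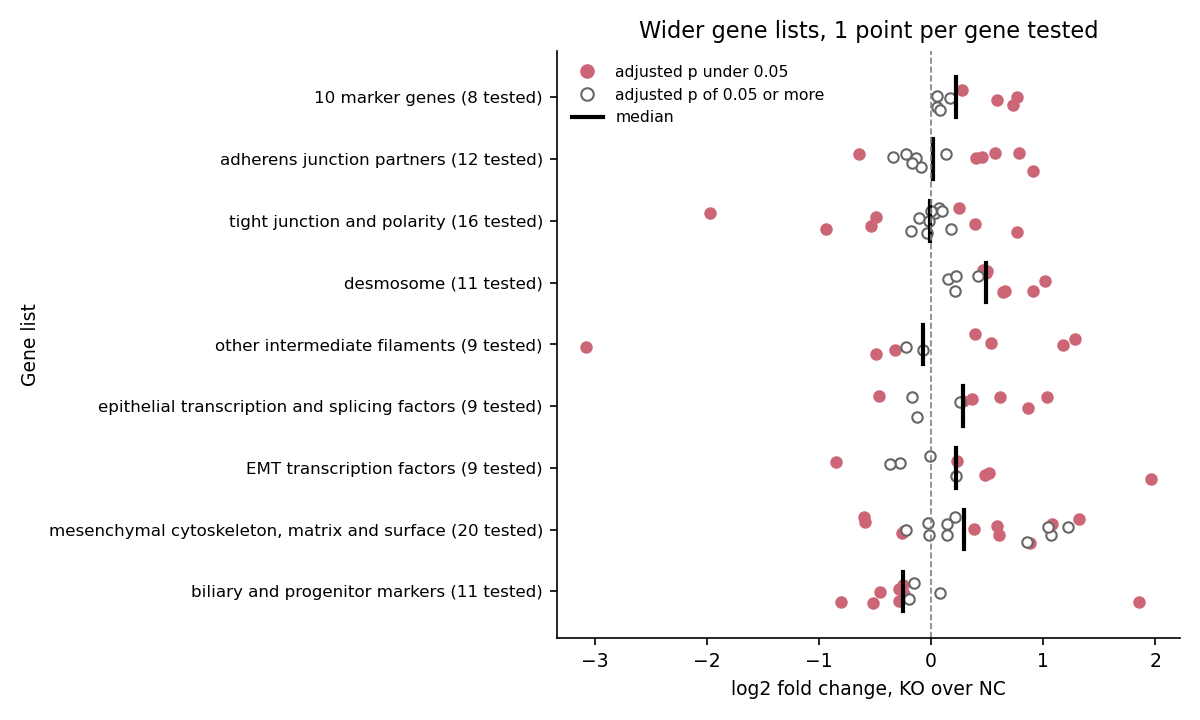
log2 fold change of KO over NC for each gene tested in the 10 marker genes and 8 wider lists, 1 point per gene, filled where the adjusted p was under 0.05, with the median of each list as a black bar. The row of epithelial transcription and splicing factors also holds Cdh16 and Spint2. The desmosome points, which leave out Jup, lie at or above 0.15, and the biliary and progenitor points lie mostly below 0.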

How the data were processed

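RNA from 4 Hepa1-6 cultures was sequenced after a directional library kit, per the labels' protocols. STAR, RSEM, FastQC and DESeq2 with the builds GRCm38 and mm10 are named in the submitters' processing notes, without versions or roles, and the annotation release and strand setting are not given in the sources used here. The authors' deposited expected counts are unnormalised estimates per gene, in which RSEM shares ambiguous reads, and the deposited TPM values are scaled by the authors for effective length and library. The deposited FPKM values were not used.

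Expected counts were rounded (totals changed by at most 0.000188%). The filter filterByExpr kept 12510 genes holding at least 99.9% of each library's counts. KO was compared with NC by edgeR 4.0.16 (R 4.3.3) quasi-likelihood tests with TMM scaling, the group as the only term and Benjamini-Hochberg adjustment over all genes tested (threshold 0.05). With 2 libraries a group the test leans on spread shared across genes. Alternatives used limma 3.58.1 on log2(TPM + 1) and log2(TPM + 0.1) and DESeq2 1.42.0. The procedure was tested on simulated data in which all genes had the same spread, so it does not gauge the calls made here. No library was a repeat deposit of another, since paired libraries of a group differed by more than sampling noise (chi-square over degrees of freedom 7.29 in NC and 10.1 in KO). Positions and overlaps come from GENCODE M21 (GRCm38), with 54723 of 54838 gene IDs matched without version, and sequences from RefSeq.

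The 10 genes and the 8 wider and 4 cell type lists were chosen with earlier results of these data known. Named are the 10 genes, Acvr2a and 12 further genes given by name. Per wider list, up to 4 genes with the lowest p past 0.05 and no overlap are named too. Cell type markers, Cdh17, Arvcf, Jup, Nectin1, Nectin3, Spint2, Twist2, Krt5, Tpm2, Tpm4, Krt8-ps and overlapping genes were named after their values were seen. A result that the rule would name is not reported here.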

Additional observations from a re-analysis of the deposited data

How the results depend on the processing

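Of the 4741 genes past 0.05 with edgeR (2459 higher, 2282 lower, 51.9% of calls higher), limma on filtered log2(TPM + 1) called 2158 (1467 higher, 691 lower, 68.0% higher) and limma on log2(TPM + 0.1) called 2099 (1427 higher, 672 lower, 68.0% higher). Limma on unfiltered log2(TPM + 1) called 0 genes, 0 higher and 0 lower, of 20640 tested, with 4506 at an unadjusted p under 0.05. There 0 of the 10 marker genes passed, 0 of them higher, against 4 in the edgeR fit, and 4 had an unadjusted p under 0.05. The cause was not tested. Leaving out 1 library left 3507 to 4488 genes. With 1 library left out, the log2 fold change ranged from -0.00038 to 0.10 for Cdh2, from -0.018 to 0.13 for Krt18, from -0.051 to 0.19 for Krt8 and from -0.17 to 0.67 for Zeb2 (-0.10 without NC 1), so these took both signs. Krt7 and Krt19 were called in 12 of 13 other fits, Vim in 10 and Epcam in 8. The replicate numbers did not pair the libraries (correlation of same-numbered deviations -0.012), and the fit with a replicate block called 5006 genes and 4 of the marker genes. With 2 libraries a group, the precision of each fold change rests on spread pooled over genes, and the depth limits Cdh1 and Snai2.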
